A study of Mus musculus with 12 samples.

Results

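Rpph1, Rmrp, Rn7sk and Terc, 4 structured noncoding RNAs that work as parts of protein complexes, were examined in mouse embryonic stem cells (ESCs) with and without Dgcr8. They were selected on their class and, for several of them, on their level in total RNA, where 3 of the 4 are among the largest features of the libraries. They are 4 of the 51467 genes counted, and all 4 were among the 14033 genes that passed the filter on low counts. Because level was part of the choice, levels and the ratio of total to nascent RNA within a genotype are given as descriptions, and tests were made only between genotypes.

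The cells were wild-type V6.5 ESCs and ESCs of a Dgcr8 knockout (Dgcr8 KO) line, both grown with serum, LIF and the 2 kinase inhibitors of 2i medium. Dgcr8 binds primary microRNA transcripts and is needed for their processing. Both genotypes were labelled for 30 min with 500 uM 4-thiouridine (4sU), which cells build into RNA as they do uridine, so the controls carry the same label. Each RNA sample was then divided into total RNA depleted of ribosomal RNA (total libraries) and RNA captured through the 4sU taken up during the pulse (4sU libraries, the measure of nascent RNA). The 4 groups of 3 replicates, 12 libraries in all, were wild-type total, Dgcr8 KO total, wild-type 4sU and Dgcr8 KO 4sU. The KO is a single line, so its genotype and any other difference between the lines cannot be told apart. Nothing in the labels says that replicates were grown apart, so p-values measure the spread between these samples, which may be technical.

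Rpph1 is the RNA of RNase P, which cuts the leader from the 5′ end of precursor tRNAs, and Rmrp is the RNA of RNase MRP, a relative that shares most of its proteins and cuts precursor ribosomal RNA in the nucleolus. Rn7sk holds the elongation kinase P-TEFb in an inactive particle with Hexim proteins and Larp7, and releases it when transcription calls for it. Terc carries the template from which the reverse transcriptase Tert adds telomere repeats, and stem cells keep this enzyme active. The first 3 are made by RNA polymerase III from promoters of the small nuclear RNA type, whereas Terc is made by RNA polymerase II and is bound by dyskerin and its partners.

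The 5′ parts of the 4 RNAs are shown, and Rmrp whole, because they hold a short stretch known for the working of each RNA. Sequences are from GENCODE M21 transcripts of the mm10 build, written 5′ to 3′ as DNA letters. They are counted from 1 at the 5′ end of the annotated transcript, which may differ from that of the RNA in the cell. Capitals mark each match of GAANNTC in Rpph1 and Rmrp, of GATC in Rn7sk and of CTAACCCT in Terc. GAANNTC is shared by the conserved core of RNase P and MRP RNAs, but a match alone does not place both sites of Rpph1 in that core. GATC is the repeat bound by Hexim in the first stem of Rn7sk, and CTAACCCT holds letters of the telomere template.
Rpph1, bases 1 to 120: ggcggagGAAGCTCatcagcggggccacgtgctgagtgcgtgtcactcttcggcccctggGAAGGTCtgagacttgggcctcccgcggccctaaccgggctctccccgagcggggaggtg
Rmrp, bases 1 to 271: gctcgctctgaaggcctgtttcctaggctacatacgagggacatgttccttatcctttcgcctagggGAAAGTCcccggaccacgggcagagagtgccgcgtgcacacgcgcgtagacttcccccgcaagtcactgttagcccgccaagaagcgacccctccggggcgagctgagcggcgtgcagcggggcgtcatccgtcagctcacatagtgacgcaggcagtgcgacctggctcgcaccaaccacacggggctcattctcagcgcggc
Rn7sk, bases 1 to 110: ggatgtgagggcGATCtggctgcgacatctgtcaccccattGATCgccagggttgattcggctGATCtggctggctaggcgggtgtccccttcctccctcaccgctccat
Terc, bases 1 to 60: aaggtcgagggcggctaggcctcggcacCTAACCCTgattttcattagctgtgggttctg

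Over the whole annotated transcripts, GAANNTC was found at positions 8 and 61 of Rpph1 and 68 of Rmrp, GATC at 13, 42 and 64 of Rn7sk, and CTAACCCT at 29 of Terc. The Terc model has 423 bases in GENCODE and 397 in RefSeq, and at which end they differ was not checked. Position 29 thus holds for the GENCODE model only. GATC reads the same on both strands, and the other motifs had no match on the complementary strand. Among annotated transcripts at least as long as the RNA, cut to its length from the 5′ end, as many matches were found in 5.89% for Rpph1, 27.0% for Rmrp, 7.99% for Rn7sk and 0.412% for Terc, so apart from Terc the letters alone are not rare. A match is a description and not a test of function.

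All 4 genes lie on the minus strand of mm10 and overlap no other annotated gene. Rpph1 (ENSMUSG00000092837.1) spans 319 bases at chr14:50807449-50807767, and Rmrp (ENSMUSG00000088088.1) 271 bases at chr4:43492788-43493058. Rn7sk (ENSMUSG00000065037.1) spans 331 bases at chr9:78175303-78175633, and Terc (ENSMUSG00000064796.1) 423 bases at chr3:96414437-96414859. Each is annotated as a single exon with no coding sequence or UTR. RefSeq gives lengths of 325, 275, 332 and 397 bases in the same order, so the Terc models differ most. Only reads that mapped to 1 place were counted, and Rn7sk has near-identical copies elsewhere in mammalian genomes, so its level is uncertain.

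Total counts per library ranged from 4593914 to 9295245. Dgcr8 itself lay between 92.0 and 111 CPM (the CPM of edgeR, counts scaled to a common library size with TMM factors) in wild-type total libraries and between 31.9 and 33.9 CPM in Dgcr8 KO total libraries. In 4sU libraries it lay between 107 and 118 CPM in wild-type and between 70.8 and 86.4 CPM in Dgcr8 KO cells. All 6 ESC markers were expressed, with sums of 4260 to 4360 CPM in wild-type and 4320 to 4400 in Dgcr8 KO total libraries, and of 4560 to 4710 and 5340 to 5820 CPM in 4sU libraries. The fibroblast feeder markers, of which 1 of 6 passed the filter, summed to 9.1 to 11 CPM in wild-type and 4.9 to 5.89 in Dgcr8 KO total libraries. In 4sU libraries they summed to 9.12 to 12.9 and 4.38 to 5.3 CPM. Postn was at 0 in each group, Col3a1 in all but Dgcr8 KO 4sU, and Col1a2 and Lum in all but wild-type total, and they are named for these values. The primitive endoderm markers, also with 1 of 6 past the filter, summed to 6.52 to 7.89 and 6.84 to 7.9 CPM in total and to 14.1 to 15.8 and 15.5 to 17.1 CPM in 4sU libraries. The low sum of the feeder list, most of which was below the filter, thus differed between genotypes in both kinds of library, and does not show feeder cells. The sum of the ESC markers differed in 4sU libraries. The part of these differences in the results was not tested. In 4sU libraries Lars2, Mir6236, Gm15564 and Gm23935 together held 9.28% ± 0.58 of counts in wild-type and 8.07% ± 0.259 in Dgcr8 KO cells (SD, n = 3), against 0.0128% and 0.0144% in total libraries. The mitochondrial share of total libraries was 0.612% ± 0.0239 in wild-type and 0.783% ± 0.013 in Dgcr8 KO cells (SD, n = 3).

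Rpph1, Rmrp and Rn7sk were the 3 most counted genes of every total library, and their order differed between genotypes. In wild-type cells Rpph1 ranked 1, Rmrp 2 and Rn7sk 3 in all 3 replicates. In Dgcr8 KO cells Rpph1 ranked 3 in all replicates, Rn7sk ranked 1, 2 and 1, and Rmrp ranked 2, 1 and 2. Terc was far lower and ranked between 3982 and 4272 in wild-type and between 2716 and 2808 in Dgcr8 KO total libraries. These ranks are of counts, which a longer gene gathers more of.

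Per kilobase of gene, Rmrp stood highest in wild-type total RNA at 47350 ± 1740 CPM per kb, followed by Rpph1 at 45080 ± 1510, Rn7sk at 32570 ± 619 and Terc at 146.1 ± 5.85 (SD, n = 3). The ranges of Rmrp and Rpph1 overlapped, and those of the other neighbours in this order did not. In Dgcr8 KO total RNA the order was Rmrp at 48530 ± 3740 CPM per kb, Rn7sk at 41040 ± 1120, Rpph1 at 30370 ± 2500 and Terc at 228.8 ± 3.73 (SD, n = 3), and no neighbours overlapped. In nascent RNA Rmrp and Rn7sk could not be told apart by their ranges, at 10380 ± 1810 and 9208 ± 924 CPM per kb in wild-type and 9315 ± 1370 and 9347 ± 641 in Dgcr8 KO cells (SD, n = 3). Rpph1 followed at 6965 ± 1640 and 5824 ± 306 CPM per kb, and its wild-type range overlapped those of both. Terc was lowest at 55.7 ± 9.16 and 66.42 ± 12.2 CPM per kb (SD, n = 3).

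The 4 RNAs together took nearly the same share of total libraries in both genotypes, 3.54% ± 0.125 in wild-type and 3.53% ± 0.194 in Dgcr8 KO cells (SD, n = 3, exact two-sided permutation p = 1.0, also 1.0 adjusted over 8 shares). In 4sU libraries they took 0.847% ± 0.135 and 0.798% ± 0.0557 (SD, n = 3, exact permutation p = 0.6, adjusted 0.8). Beneath this nearly level sum the single RNAs moved in different directions.

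**Figure D1:**
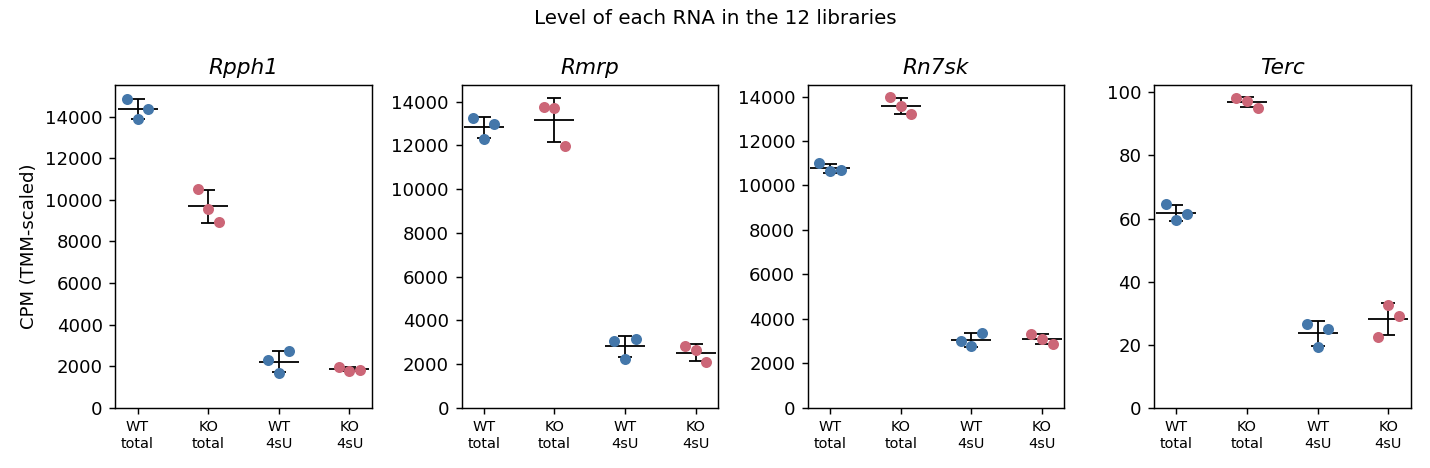
Level of each RNA in CPM (linear axis from 0, scaled to library size and TMM factor) in the 12 libraries, with 1 point per library and bars for the mean ± SD of 3 replicates. In total RNA the Dgcr8 KO points of Rpph1 lie below, and those of Rn7sk and Terc above, all wild-type points, whereas in 4sU RNA the genotypes overlap for all 4 RNAs.

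To ask how steady-state levels of these RNAs differ without Dgcr8, total libraries were compared between genotypes. Rpph1 fell, Rn7sk and Terc rose, and Rmrp did not pass the test. In such bulk samples a change in the mix of cells and a change in RNA per cell cannot be told apart. Of all 14033 genes tested, 27.2% were called higher and 36.7% lower in Dgcr8 KO total RNA, so a call for 3 of 4 RNAs is not a share far from the background. With the further limit of the study, a log2 change over 1 either way, 17.2% of genes and none of the 4 RNAs were called.

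Rpph1 stood at 14860, 13900 and 14380 CPM in the wild-type total libraries and at 10540, 9575 and 8954 CPM in the Dgcr8 KO total libraries. Every KO value lay below every wild-type value. The mean went from 14380 ± 481 to 9689 ± 798 CPM (SD, n = 3), a fall of 1.49-fold, or -0.57 on the log2 scale (SE 0.0698 and adjusted p = 1.58e-08 by limma).

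Rmrp stood at 13230, 12310 and 12960 CPM in wild-type and at 13740, 13730 and 11980 CPM in Dgcr8 KO total libraries. The groups overlapped, since the third KO library lay below all wild-type libraries and the other two above. The log2 change was 0.03 (95% interval -0.11 to 0.17, limma adjusted p = 0.694).

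Rn7sk stood at 11010, 10630 and 10690 CPM in wild-type and at 13960, 13570 and 13220 CPM in Dgcr8 KO total libraries. Every KO value lay above every wild-type value. The mean rose 1.26-fold, from 10780 ± 205 to 13580 ± 371 CPM (SD, n = 3), or 0.33 on the log2 scale (SE 0.0417 and adjusted p = 2.57e-08 by limma).

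Terc stood at 64.46, 59.56 and 61.38 CPM in wild-type and at 98.15, 97.19 and 95.06 CPM in Dgcr8 KO total libraries. It was the RNA of the 4 with the largest rise, and the groups lay far apart beside their own spread. The mean rose 1.57-fold, from 61.8 ± 2.47 to 96.8 ± 1.58 CPM (SD, n = 3), or 0.65 on the log2 scale (SE 0.0759 and adjusted p = 6.28e-09 by limma).

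Ratios of these RNAs within a library do not depend on how libraries are scaled. In total RNA the genotypes did not overlap for any of the 6 pairs, which are built from only 4 RNAs, against 65.5% of all pairs of genes tested. In 4sU RNA they overlapped for all 6, against 59.5% of all gene pairs that did not. Each total RNA ratio had an exact permutation p of 0.1, the smallest that 3 against 3 allows, and an adjusted exact p of 0.2 over the 12 ratios tested, so no ratio passed the correction.

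Rpph1 to Rmrp, the ratio between the RNase P and RNase MRP RNAs, was 1.12 in wild-type and 0.737 in Dgcr8 KO total libraries. Its log2 values were 0.168, 0.175 and 0.15 in wild-type and -0.383, -0.52 and -0.42 in Dgcr8 KO replicates, a mean difference of -0.605. Thus reads of Rpph1 outnumbered those of Rmrp in each wild-type library and were outnumbered in each KO library. Rpph1 to Rn7sk went from 1.33 to 0.712, and Rpph1 to Terc, the pair with the widest difference, from 233 to 99.9. Among the other pairs, Rmrp to Terc went from 208 to 136, Rn7sk to Terc from 174 to 140 and Rmrp to Rn7sk from 1.19 to 0.966.

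Nascent RNA was compared next, to see whether the differences were already present in RNA made during the pulse. Only Rpph1 passed the test, and in the same direction as in total RNA. Among all genes 28.3% were called higher and 28% lower in Dgcr8 KO nascent RNA, and 14.8% with the limit on the log2 change, which none of the 4 RNAs met.

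Rpph1 stood at 2278, 1674 and 2714 CPM in wild-type and at 1968, 1782 and 1824 CPM in Dgcr8 KO 4sU libraries. The groups overlapped, because the second wild-type library was the lowest of the 6. The log2 change was -0.24 (SE 0.089, limma adjusted p = 0.0226), and DESeq2 gave an adjusted p of 0.0593. Without the third wild-type replicate the log2 change was -0.09 (limma adjusted p = 0.332), and without the second it was -0.43 (limma adjusted p = 2.64e-06). The call was also lost without the first wild-type (-0.21), the second Dgcr8 KO (-0.20) or the third Dgcr8 KO replicate (-0.21).

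Rmrp stood at 3053, 2249 and 3139 CPM in wild-type and at 2811, 2657 and 2105 CPM in Dgcr8 KO 4sU libraries, and the groups overlapped. Its log2 change was -0.16 (95% interval -0.33 to 0.01, limma adjusted p = 0.108). It passed without the second wild-type replicate (-0.31, limma adjusted p = 0.000685) and without the first Dgcr8 KO replicate (-0.23, limma adjusted p = 0.0374), and was -0.02 without the third Dgcr8 KO replicate (limma adjusted p = 0.871).

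Rn7sk stood at 3010, 2763 and 3371 CPM in wild-type and at 3297, 3110 and 2874 CPM in Dgcr8 KO 4sU libraries. Its log2 change was 0.02 (95% interval -0.08 to 0.12, limma adjusted p = 0.731), and its sign turned under other scalings. A nascent change of Rn7sk as large as its change in total RNA lay outside this interval.

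Terc stood at 26.4, 19.14 and 25.13 CPM in wild-type and at 22.47, 32.64 and 29.17 CPM in Dgcr8 KO 4sU libraries. These values rest on 92 to 172 counts per library, against 415 to 874 in total libraries, and the groups overlapped. The log2 change was 0.24 (95% interval -0.03 to 0.50, limma adjusted p = 0.123), and without the first Dgcr8 KO replicate it was 0.39 (limma adjusted p = 0.0143). Without the second wild-type replicate it was 0.11 and without the second Dgcr8 KO replicate 0.13 (limma adjusted p = 0.519 and 0.478).

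The second wild-type replicate gave the lowest wild-type value of all 4 RNAs in 4sU and also in total libraries. Its 4sU library had the fewest counts of all libraries (4593914). The mitochondrial share of that library was 6.51%, against 5.7% and 5.56% in the other wild-type 4sU libraries. What set it apart was not tested.

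**Figure D2:**
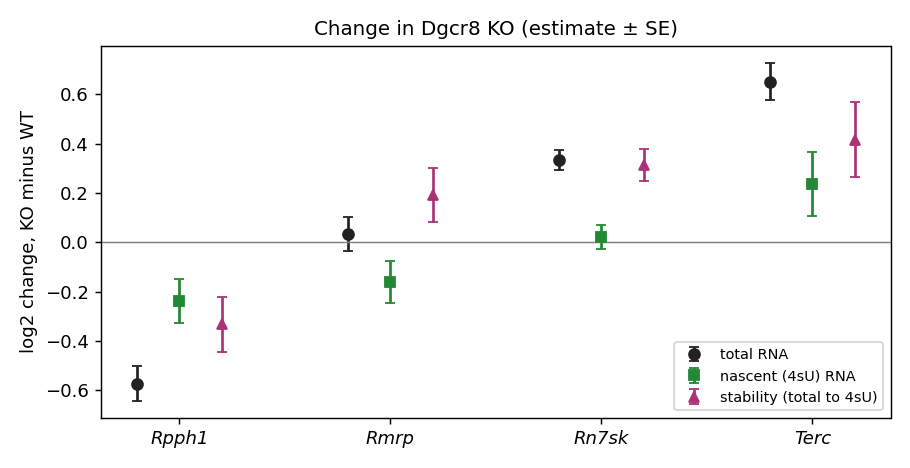
Log2 change in Dgcr8 KO against wild-type cells of each RNA in total RNA, nascent RNA and stability (points, limma estimates; bars, SE; the line marks no change). Rpph1 lies below 0 in all 3 contrasts, and Rn7sk lies above 0 in total RNA and stability with a nascent estimate of 0.02.

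The ratio of total to 4sU signal served as the measure of stability. All 4 RNAs stood high on this measure in wild-type cells, but the choice by total RNA level used the same values, so no test was made of it. Relative to the median gene, the log2 ratio in wild-type cells was 2.63 for Rpph1, 2.11 for Rmrp, 1.74 for Rn7sk and 1.29 for Terc. These values lay at percentiles 99.8, 98.8, 95.7 and 88.2 of the genes tested. In Dgcr8 KO cells the same order of RNAs gave 2.38, 2.39, 2.14 and 1.79, at percentiles 99.4, 99.4, 98.6 and 96.1. The other 237 short structured RNAs tested, mostly small nucleolar RNAs, had a median log2 ratio of -2.12 in wild-type cells on the same scale, and protein-coding genes one of 0.23. Those with the highest total RNA levels stood above that class median. Their wild-type log2 ratios ran from 0.06 (Gm22973) to 2.52 (Gm24265), both named for these values, where the median gene had 0.08. A high ratio is thus not particular to the 4 RNAs.

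4sU enters RNA in place of uridine, and the share of uridine in all 4 RNAs was below that of the median transcript. Rpph1 holds 51 uridines (16%), Rmrp 46 (17%), Rn7sk 74 (22.4%) and Terc 76 (18%), against a median of 24.4% over 141767 annotated transcripts. Rpph1 and Rmrp lie under the 5th percentile of 17.9%, whereas Rn7sk is close to the median. The part of uridine content in the high ratios was not tested, and it is the same in both genotypes.

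The change in stability was tested as the interaction of genotype and library type. Rn7sk became more stable by this measure and Rpph1 less stable, and Rmrp and Terc did not pass. The total and 4sU libraries of a replicate come from 1 divided RNA sample, and with that sample as a replicate block all 4 RNAs passed, with Rmrp and Terc more stable. The values with the block were 0.31 for Rn7sk (limma adjusted p = 3.84e-07), -0.33 for Rpph1 (limma adjusted p = 0.000108), 0.19 for Rmrp (limma adjusted p = 0.00767) and 0.40 for Terc (limma adjusted p = 0.0312). Among all genes 5.02% were called more stable and 11.1% less stable, and 1.76% with the limit on the log2 change, which none of the 4 RNAs met. With the block 6.19% were called more stable and 13.4% less stable.

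Rn7sk had log2 ratios of total to 4sU signal of 1.87, 1.94 and 1.66 in the wild-type replicates and 2.08, 2.13 and 2.20 in the Dgcr8 KO replicates. Every KO replicate lay above every wild-type replicate. The change was 0.31 (SE 0.0647, limma adjusted p = 8e-04), and DESeq2 gave an adjusted p of 0.000175. With no filter on low counts, which brings in many more genes, the change was 0.34 (limma adjusted p = 0.0721).

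Rpph1 had log2 ratios of 2.71, 3.05 and 2.41 in wild-type and 2.42, 2.43 and 2.30 in Dgcr8 KO replicates. The groups overlapped, and the wild-type replicates were spread over a wider range. The change was -0.33 (SE 0.113, limma adjusted p = 0.041). The call was lost with the quasi-likelihood test of edgeR (adjusted p = 0.130) and with DESeq2 (adjusted p = 0.553), and without the second wild-type replicate the change was -0.18 (limma adjusted p = 0.161). Among the replicates left out in turn, the call held only without the third wild-type replicate (-0.49, limma adjusted p = 0.000515). It was lost without the first wild-type (-0.34) and without the first Dgcr8 KO (-0.36), the second (-0.37) or the third (-0.29).

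Terc had log2 ratios of 1.29, 1.64 and 1.29 in wild-type and 2.13, 1.57 and 1.71 in Dgcr8 KO replicates, with overlapping groups. The change was 0.42 (95% interval 0.11 to 0.72, limma adjusted p = 0.0562). It passed with edgeR (adjusted p = 0.0482), DESeq2 (adjusted p = 0.0193) and the block, and not with limma-trend (adjusted p = 0.0896). It was 0.25 without the first Dgcr8 KO replicate (limma adjusted p = 0.337), and passed without the second wild-type (0.51) or the second Dgcr8 KO replicate (0.52, limma adjusted p = 0.0255 and 0.0417).

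Rmrp had log2 ratios of 2.12, 2.45 and 2.05 in wild-type and 2.29, 2.37 and 2.51 in Dgcr8 KO replicates, with overlapping groups. The change was 0.19 (95% interval -0.03 to 0.42, limma adjusted p = 0.256). Without the second wild-type replicate it was 0.30 (limma adjusted p = 0.0307), and without the third 0.11 (limma adjusted p = 0.57). With the block it passed.

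**Figure D3:**
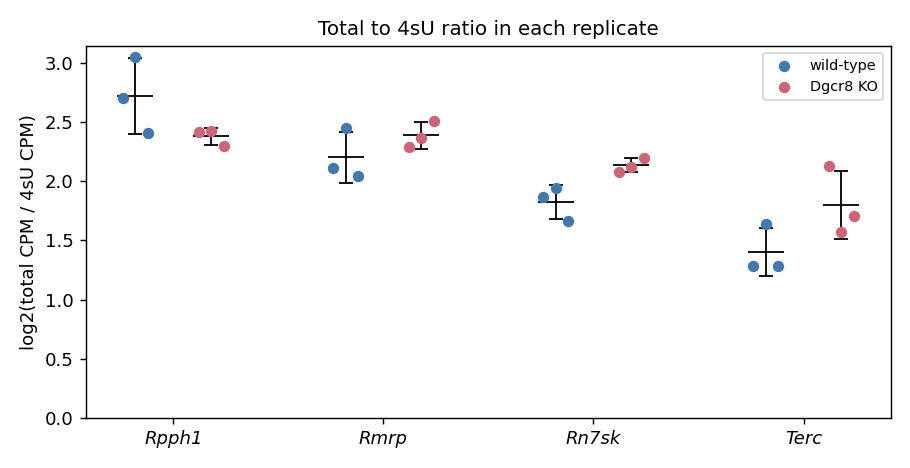
Log2 ratio of total to 4sU CPM of each RNA in the 6 replicates (axis from 0; points, replicates; bars, mean ± SD of 3 replicates). The genotypes are separate for Rn7sk and overlap for Rpph1, Rmrp and Terc.

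Other short structured RNAs give the setting for these changes. Of the 237 tested, 32 (13.5%) were higher and 32 (13.5%) lower in total RNA by limma, against 27.2% and 36.7% of all genes. In nascent RNA 9 (3.8%) were higher and 106 (44.7%) lower, against 28.3% and 28% of all genes. In stability 35 (14.8%) rose and 0 fell, against 5.02% and 11.1% of all genes. Their median stability change was 0.20, against -0.09 over all genes tested. The rise of Rn7sk in stability thus had the direction of these RNAs and the fall of Rpph1 did not. The values behind the rise differed, however. The median log2 change of these RNAs was -0.04 in total and -0.335 in nascent RNA, whereas Rn7sk changed by 0.33 and 0.02. Their summed share went from 0.391% ± 0.0231 to 0.476% ± 0.0365 of total libraries and from 0.743% ± 0.0742 to 0.617% ± 0.0631 of 4sU libraries (SD, n = 3, exact permutation p = 0.1 each and 0.2 adjusted over the 8 shares tested). The part of the shift of these other RNAs in the result for Rn7sk was not tested.

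The mRNAs of proteins that hold these RNAs were examined from lists of known partners, and no protein was measured. For this and the following lists, the background over all genes tested was 27.2% higher and 36.7% lower in total RNA. It was 28.3% and 28% in nascent RNA, and 5.02% and 11.1% in stability by limma. RNase P and MRP gave 11 listed proteins, most of them shared by both enzymes, and all were tested. In total RNA 8 were lower, 2 higher and 1 did not pass, with a median log2 change of -0.45 against -0.09 over all genes. Rpp21, a protein of RNase P, dropped from 23.7 ± 0.955 to 9.61 ± 0.588 CPM (SD, n = 3), which is -1.30 on the log2 scale (adjusted p = 2.74e-10 by limma). Rpp30, with a log2 change of -0.77, and Pop5, with -0.76, are subunits of both enzymes and fell too (limma adjusted p = 1.53e-08 and 9.18e-08). Rpp25l, a close relative of the subunit Rpp25, had a log2 change of -0.54 (limma adjusted p = 0.000253). Against this direction Rpp38, a subunit that binds the RNA, rose from 12.5 ± 1.04 to 24.6 ± 2.32 CPM (SD, n = 3), which is 0.96 on the log2 scale (adjusted p = 9.29e-08 by limma). Rpp25 itself also rose, by 0.15 on the log2 scale (adjusted p = 0.0312 by limma), and is named because of this value. It stood at 132 CPM in wild-type total RNA, against 28.9 CPM for Rpp25l. In nascent RNA 2 were higher and 4 lower, and in stability 4 were lower and 0 higher by limma. The fall of Rpph1 thus stood beside falls of most mRNAs for its protein partners, whereas Rmrp, which shares most of them, did not pass.

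The 7SK particle and P-TEFb gave 7 listed genes, of which 4 were lower, 1 higher and 2 not past the test in total RNA, with a median log2 change of -0.19. Ccnt1, the main cyclin of P-TEFb, fell from 197 ± 1.57 to 137 ± 6.3 CPM (SD, n = 3), which is -0.52 on the log2 scale (adjusted p = 1.57e-09 by limma). Its relative Ccnt2 had a log2 change of -0.39 and the kinase Cdk9 one of -0.20 (limma adjusted p = 1.17e-06 and 0.0314). Larp7, which binds and protects the 3′ end of 7SK RNA, had a log2 change of -0.19 (limma adjusted p = 0.0111). DESeq2 called neither Cdk9 nor Larp7 (adjusted p = 0.111 and 0.0749). Hexim2, an inhibitor of P-TEFb, rose by 0.51 on the log2 scale (limma adjusted p = 0.00267), and the more abundant Hexim1 had a log2 change of 0.11 (limma adjusted p = 0.204). None of the 7 passed for stability by limma, a count near the background.

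Telomerase and the maturation of Terc gave 12 listed genes, of which 8 were lower, 1 higher and 3 not past the test in total RNA, with a median log2 change of -0.32. Tert, the catalytic protein, fell from 30.9 ± 1.91 to 17.4 ± 1.48 CPM (SD, n = 3), which is -0.83 on the log2 scale (adjusted p = 4.84e-08 by limma). The mRNAs of the box H/ACA proteins that bind Terc were each lower in total RNA. Nhp2 fell from 192 ± 4.79 to 82.1 ± 3.65 CPM (SD, n = 3), which is -1.22 on the log2 scale (adjusted p = 5.87e-17 by limma). Nop10 had a log2 change of -0.80, Dkc1 (dyskerin) one of -0.45 and Gar1 one of -0.36 (limma adjusted p = 2.32e-11, 4.77e-09 and 0.00498). The single gene that rose was Parn, which trims the 3′ end of Terc. It rose by 0.26 on the log2 scale (adjusted p = 0.00129 by limma) and is named because of this value. In nascent RNA 7 were lower and 1 higher, against 28% and 28.3% of all genes. In stability 3 were lower and 0 higher by limma, against 11.1% and 5.02% of all genes. Terc RNA thus rose in the cells in which mRNAs of Tert and of its H/ACA proteins were lower.

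**Figure D4:**
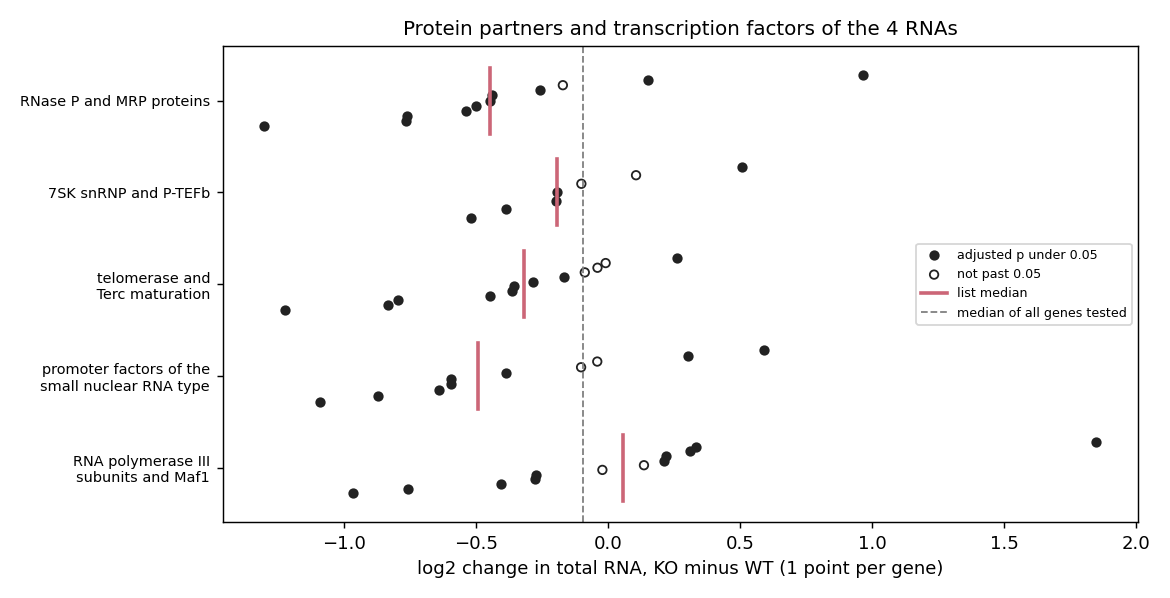
Log2 change in total RNA, Dgcr8 KO minus wild-type, of each gene of the 5 lists (filled points, limma adjusted p under 0.05; open points, not past it; red bars, list medians; dashed line, median of all genes tested). Most points of the RNase P and MRP, telomerase and promoter factor lists lie left of 0, and those of RNA polymerase III lie on both sides.

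Factors that act at promoters of the small nuclear RNA type, from which Rpph1, Rmrp and Rn7sk are made, gave 10 listed genes. In total RNA 6 were lower, 2 higher and 2 did not pass, with a median log2 change of -0.49. Brf2, the initiation factor particular to these RNA polymerase III promoters, fell from 31 ± 1.81 to 14.8 ± 2.07 CPM (SD, n = 3), which is -1.09 on the log2 scale (adjusted p = 1.03e-09 by limma). Snapc5 and Snapc4, subunits of the complex that binds the proximal element, had log2 changes of -0.87 and -0.59 (limma adjusted p = 3.46e-07 and 1.93e-07). The TATA-binding protein Tbp had one of -0.64 and the activator Zfp143 one of -0.59 (limma adjusted p = 2.17e-08 and 7.8e-08). The genes that rose, named because of their values, were Pou2f1, which encodes the octamer-binding factor Oct-1, and Snapc1, with log2 changes of 0.59 and 0.30 (limma adjusted p = 2.63e-10 and 0.031). Without the third wild-type replicate Snapc1 had a log2 change of 0.20 (limma adjusted p = 0.218). In nascent RNA 6 were lower and 1 higher, and in stability 2 moved each way by limma. In the same 4sU libraries nascent Rpph1 had a log2 change of -0.24 (limma adjusted p = 0.0226), with overlapping groups and no call by DESeq2 (adjusted p = 0.0593). Rmrp and Rn7sk did not pass the test.

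RNA polymerase III and its repressor Maf1 gave 12 listed genes, which were evenly divided in total RNA, with 5 higher, 5 lower and 2 not past the test (median log2 change 0.06). Polr3g and Polr3gl encode alternative forms of 1 subunit, and the former is the form known for stem cells. Polr3g rose from 174 ± 11 to 219 ± 5.4 CPM (SD, n = 3), which is 0.33 on the log2 scale (adjusted p = 5.36e-06 by limma). Polr3gl rose from 3.76 ± 1.18 to 12.9 ± 2.79 CPM (SD, n = 3), which is 1.85 on the log2 scale (adjusted p = 5.72e-08 by limma). Its wild-type level lay near the filter of 3 CPM, with at most 33 counts in a wild-type and 134 in a Dgcr8 KO total library, so its fold change is uncertain. Crcp and Polr3e, subunits of the polymerase, had log2 changes of -0.76 and -0.40 (limma adjusted p = 1.29e-07 and 5.88e-06). In nascent RNA 5 were higher and 3 lower, and in stability 1 was higher and 3 lower by limma. With the limit on the log2 change, 4 genes of the 5 lists were called in total RNA, namely Rpp21, Nhp2, Brf2 and Polr3gl.

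The nearest protein-coding gene on each side of each RNA was examined as well. Rpph1 lies 179 bases from Parp2, a DNA repair gene on the opposite strand. Parp2 fell from 75.5 ± 6.09 to 56.5 ± 2.65 CPM in total RNA (SD, n = 3), which is -0.41 on the log2 scale (SE 0.0743 and adjusted p = 1.55e-05 by limma). Its nascent log2 change was -0.45 (limma adjusted p = 0.00198). Estimates for both genes of this divergent pair were thus below 0 in both kinds of library. The nascent groups of Rpph1 overlapped, however, and its call depended on the test and on single replicates. On the other side, Ccnb1ip1 lies 11721 bases away and had log2 changes of -0.51 in total and -0.33 in nascent RNA (limma adjusted p = 0.00105 and 0.0436).

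Rmrp lies 304 bases from Ccdc107, also on the opposite strand, whose log2 change in total RNA was -0.30 (limma adjusted p = 0.0568), or -0.41 without the first and -0.15 without the third wild-type replicate (limma adjusted p = 0.0123 and 0.378). On its other side Sit1 was below the filter. Rn7sk lies 3196 bases from Ick, whose log2 change of 0.0002 had no stable sign (limma adjusted p = 0.999), and 16314 bases from Gsta4, a glutathione transferase gene that moved the other way, by -0.42 on the log2 scale (adjusted p = 1.28e-08 by limma). The neighbours of Terc, BC107364 at 18929 and Fcgr1 at 120468 bases, were both below the filter.

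Genes whose level followed each RNA most closely over the 12 libraries were found by Pearson's r of log2(CPM + 1). For Rpph1 they were Mta2 (r = 0.9975), Ubqln1 (0.997) and Ppm1g (0.9966), and for Rmrp Pcsk6 (0.9968), Prkcsh (0.9954) and Igbp1 (0.9951). For Rn7sk they were Htra1 (0.9978), Ganab (0.9976) and Calu (0.9975), and for Terc Apool (0.9917), Ciapin1 (0.9908) and Washc4 (0.9904). All 12 points share the contrast of total and 4sU libraries, and the number of genes with r over 0.95 was 1739, 1602, 1475 and 661 in the same order, so the closeness is not particular to those named.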

How the data were processed

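Total RNA depleted of ribosomal RNA and RNA captured by 4sU were sequenced from wild-type and Dgcr8 KO ESCs, with 3 replicates each. The deposited values are raw read counts per gene, which the authors made by trimming adapters (cutadapt 1.14), mapping 50-base single-end reads uniquely to mm10 (STAR 2.5.3a) and counting on the reverse strand against GENCODE M14 without ribosomal RNA genes (featureCounts 1.5.3). Unique mapping leaves out reads that fit several copies, and how well short RNAs were recovered in the libraries was not measured. The kit used for each library, of the pair of stranded kits named by the study, is not given in the sources used here. The 92 spike-in rows held 1 count in all and were left out, so no absolute scaling was possible and changes are relative to the other RNAs of a library.

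Groups and replicate numbers came from the sample titles, whose Dgcr8 KO genotype is also given in the genotype field, whereas the source name of these samples reads DDX8KO. Per the study's methods each RNA sample was split, so the total and 4sU libraries of 1 replicate are a pair, although their deviations from the group means correlated at only 0.0203 to 0.134. Gene identifiers were matched to GENCODE M21 of the same build (51274 of 51467). Genes with at least 3 CPM in at least 3 libraries were kept (14033). Under R 4.3.3, TMM factors were computed with edgeR 4.0.16, and voom weights and the linear model with limma 3.58.1. As in the design of the study, 1 model with terms for genotype, library type and the interaction of both took all 12 libraries. The interaction is the change in stability (total to 4sU). A gene passed at a Benjamini-Hochberg adjusted p under 0.05 over all genes tested. Ratios between members and shares of libraries were compared by exact permutation tests (two-sided), which cannot give a p under 0.1 with 3 against 3.

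The members and the lists were chosen with earlier results of these data known. Genes named are the members, up to 5 of each list with the largest change in total RNA among those that passed, Tert, Dkc1, Larp7, Hexim1, Cdk9, Polr3g, Polr3gl, Dgcr8, the nearest protein-coding genes and the 3 genes most alike to each member. Other named genes are said to be named for their values, as are Lars2, Mir6236, Gm15564 and Gm23935, which stood out in 4sU libraries after the data were seen. The values of 1 gene that the rule names are not reported here. Papd5 was matched under the symbol Tent4b. Replicates of a group differed by more than sampling noise (chi-square per degree of freedom at least 1.54). On simulated counts for the total RNA comparison, 93.8% of 195 changed genes were recovered among 13678 tested, with 11 false calls. Recovery of changes as small as those of the members was not tested, nor was recovery in nascent RNA or stability. The alternatives were edgeR, DESeq2 1.42.0, limma-trend, other scalings and filters, replicate blocks and leaving out each replicate.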

Additional observations from a re-analysis of the deposited data

Results flagged for a closer look

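The difference between Dgcr8 KO and wild-type cells was not the same in total as in nascent RNA for Rn7sk and Rpph1, by the interaction test of limma. For Rn7sk the total RNA change exceeded the nascent change by 0.312 on the log2 scale (adjusted p = 8e-04), with all 3 Dgcr8 KO replicates above all 3 wild-type replicates. For Rpph1 the difference was -0.333 (adjusted p = 0.041), with overlapping replicates and no call by edgeR or DESeq2. Groups of 3 are too small for a check of single samples that stand apart.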

How the results depend on the processing

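The total RNA changes kept their direction and side of the threshold in all alternatives but the limit on the log2 change for Rpph1 (-0.631 to -0.505 when leaving out each replicate), Rn7sk (0.314 to 0.365) and Terc (0.616 to 0.676). Rmrp in total RNA ran from -0.00589, without the second wild-type replicate, to 0.111. The nascent and stability results depended on the processing, and the cause was not tested. Of 1079 alternative values over 76 results, 978 kept direction and call, 10 reversed, 41 lost and 22 gained a call, and 28 moved.

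Rpph1 stability was not called by edgeR (-0.311, adjusted p = 0.130), DESeq2 (-0.225, adjusted p = 0.553) or limma-trend (-0.341, adjusted p = 0.107). Under limma it was -0.244 with RLE, -0.267 with upper-quartile and -0.305 with library-size scaling, -0.283 with Lars2, Mir6236, Gm15564, Gm23935 and mitochondrial genes out of the scaling (chosen after seeing the data), -0.282 with no filter and -0.324 with the filter in all 12 libraries, all with adjusted p over 0.05. Terc stability became called with edgeR (0.408), DESeq2 (0.494), RLE (0.506), upper-quartile (0.483) and library-size scaling (0.443), without those genes in the scaling (0.465) and with the stricter filter (0.427). Rpph1 in nascent RNA lost its call with DESeq2 (-0.313), limma-trend (-0.231) and no filter (-0.258). Rn7sk in nascent RNA turned to -0.0349 with DESeq2, -0.0362 with RLE and -0.0282 with upper-quartile scaling, without a call. Rmrp in nascent RNA became called with RLE (-0.217) and upper-quartile scaling (-0.209). Rn7sk stability lost its call with no filter (0.345, adjusted p = 0.0721).

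Of the 4 RNAs, the number called in nascent RNA, 1 here, was 0 with DESeq2, limma-trend or no filter and 2 with RLE or upper-quartile scaling. The number called for stability, 2 here, was 1 with limma-trend and 0 with no filter. With no filter, 1459 genes in all were called for stability, against 2261. With the limit of 1 on the log2 change, 0 of the 4 RNAs were called in any contrast, genes of the 5 lists went from 42, 33 and 15 to 4, 0 and 0 in total, nascent and stability contrasts, and all genes from 8970, 7898 and 2261 to 2408, 2073 and 247.

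Same-numbered libraries of the genotypes did not deviate together (correlations from -0.103 to 0.0905), so they share only a number. With the replicate number as a replicate block, Rmrp in nascent RNA (-0.158, adjusted p = 0.0426) and Terc stability (0.416, adjusted p = 0.0365) became called, and 2 of the 4 RNAs were called in nascent RNA. With the divided RNA sample as a replicate block, Rmrp (0.191, adjusted p = 0.00767) and Terc stability (0.402, adjusted p = 0.0312) became called, which made 4.

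Leaving out each replicate in turn, nascent changes ran from -0.426 to -0.0903 for Rpph1, -0.311 to -0.0163 for Rmrp, -0.049 to 0.091 for Rn7sk (-0.0141 without the first Dgcr8 KO replicate) and 0.106 to 0.394 for Terc, with 0 to 3 of the RNAs called. Stability changes ran from -0.49 to -0.18 for Rpph1, 0.115 to 0.305 for Rmrp, 0.229 to 0.363 for Rn7sk and 0.25 to 0.521 for Terc, with 1 to 3 called. Rpph1 stability was called only without the third wild-type replicate among these.

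Of 560 alternative values for 33 partner and neighbour genes, Rpp25 not among them, 534 kept direction and call. Cdk9, Larp7 and Snapc1 lost their calls in the others, Hexim1 and Ccdc107 gained calls, and Ick turned its sign, to -0.000311 with the members out of the scaling and over a range of -0.126 to 0.102 when leaving out each replicate (-0.0669 and -0.0214 without the first and second wild-type replicate). Other scalings moved the median log2 ratio of total to 4sU of all genes in wild-type cells from 0.0847 to as low as -0.237, so that ratio is given relative to the median.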

Other observations

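Among other short structured RNAs past the filter, those with the highest total RNA levels mostly rose in total RNA. Not every rise passed the test, and Rny1 fell. Of all 237 in this class, 13.5% were called higher and 13.5% lower, against 27.2% and 36.7% of all genes tested. The rises thus describe those picked by level and not the class. Scarna2, a small RNA of the Cajal body, stood at 355 CPM on average over total libraries and had a log2 change of 0.95 in total RNA (limma adjusted p = 1.115e-14), with a stability change of 0.08 (limma adjusted p = 0.6969). Snora73b, a small nucleolar RNA, stood at 448 CPM and had a total RNA change of 0.44 and a stability change of 0.45 (limma adjusted p = 1.27e-07 and 0.001245). The Y RNAs, which are also made by RNA polymerase III and bind the Ro protein, went apart. Rny3 had a total RNA change of 0.32 and Rny1 one of -0.34 (limma adjusted p = 0.002392 and 0.001927). These RNAs were named for their values. The RNA of the signal recognition particle could not be followed, with 0 counts of Rn7s1 and 0 to 4 counts of Rn7s2 per library.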
